A study of Mus musculus with 2 samples.

Results

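Periostin (Postn), fibronectin (Fn1), fibrillin 1 (Fbn1), the fibulin Efemp1, gelatinase A (Mmp2) and the procollagen enhancer Pcolce2 are 6 genes for proteins of the extracellular matrix or for its processing. Their probes were taken by gene symbol from the authors' deposited table of 869 probes, of which 822 carry 1 symbol, and joined by probe identifier to the value table of 35556 probes. The 6 genes have 7 probes in the authors' table, 2 of them for Fbn1. The authors' table lists only probes higher in H4-TG, and the genes were picked from it with their differences known, so each difference below is a description and carries no test.

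The study compared the inguinal white fat pad, a subcutaneous depot, between H4-TG transgenic mice and wild-type (WT) mice. All were males of about 8 weeks, fed chow and kept at room temperature, and RNA of 4 animals of a genotype was pooled onto 1 array. The labels give neither the strain, nor the promoter that drives the transgene, nor the meaning of H4. There is no spread between replicates, so no p-value or error is given, and having so few arrays limits how precise any value can be. Signals are log2 values on the deposited scale, and a difference of 1 is 2-fold.

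The extracellular matrix of fat is laid down largely by fibroblasts and adipocyte progenitors and surrounds each adipocyte and vessel. Fibronectin and fibrillin form fibrils that cells grip through integrins, periostin and the fibulins link such fibrils to collagen and elastic fibres, and proteases and procollagen enhancers cut and mature the fibres. Skeletal muscle has a matrix of the same kind between its fibres, made by fibroblasts of its own. These genes were therefore not used here to tell fat from muscle.

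Promoter sequence is shown as background, and shared control of these genes was not tested. RefSeq windows (GRCm38.p6) were present for 4 of the 6 genes, with 2 start sites for Postn. Fn1 and Mmp2 are named only. Each run below is the 250 bases before an annotated start, on the gene's own strand. Capitals mark matches, on either strand, to 4 motifs, none of which overlapped. The TATA box was searched as TATAAA. The E-box, which myogenic and many other factors bind, was searched as CANNTG. For the GC box of Sp-type factors the letters were GGGCGG, and for the SMAD box of TGF-beta signalling they were CAGAC. The windows are chr3:54360857-54361106 on the plus strand for the downstream start of Postn, chr11:28852955-28853204 on the plus strand for Efemp1, chr9:95637378-95637627 on the plus strand for Pcolce2 and chr2:125506439-125506688 on the minus strand for Fbn1.
Postn: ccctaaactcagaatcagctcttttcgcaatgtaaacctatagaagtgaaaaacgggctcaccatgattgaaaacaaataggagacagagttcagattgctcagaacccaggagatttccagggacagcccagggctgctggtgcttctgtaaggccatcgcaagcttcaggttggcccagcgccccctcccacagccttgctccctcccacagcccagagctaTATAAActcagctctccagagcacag
Efemp1: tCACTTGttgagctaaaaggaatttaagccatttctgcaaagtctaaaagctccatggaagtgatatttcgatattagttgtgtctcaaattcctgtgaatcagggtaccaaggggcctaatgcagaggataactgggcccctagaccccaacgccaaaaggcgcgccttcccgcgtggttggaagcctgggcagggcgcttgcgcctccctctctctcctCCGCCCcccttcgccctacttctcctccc
Pcolce2: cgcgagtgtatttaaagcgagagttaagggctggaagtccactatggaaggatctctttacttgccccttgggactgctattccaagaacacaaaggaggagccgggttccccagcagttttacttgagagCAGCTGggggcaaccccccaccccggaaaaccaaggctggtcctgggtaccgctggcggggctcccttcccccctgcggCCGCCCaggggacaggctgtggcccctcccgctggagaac
Fbn1: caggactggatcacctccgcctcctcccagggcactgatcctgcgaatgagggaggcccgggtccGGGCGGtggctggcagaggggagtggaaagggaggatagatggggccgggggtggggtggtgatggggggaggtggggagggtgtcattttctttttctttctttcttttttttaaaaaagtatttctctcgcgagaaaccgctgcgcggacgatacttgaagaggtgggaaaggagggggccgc
The downstream Postn window held a TATA box at -26 to -21, counted from the start, and none of the other motifs. Its upstream window, not printed, held 1 SMAD box. Efemp1 had an E-box at -249 to -244 and a GC box at -29 to -24. Pcolce2 had an E-box at -119 to -114 and a GC box at -40 to -35, and Fbn1 had a GC box at -185 to -180. No motif was present in all 5 windows. Over 32851 RefSeq windows of the same length, 12.4% held a TATA box by these letters, 66.2% an E-box, 32.7% a GC box and 42.2% a SMAD box. The share of G plus C was 52% in the printed Postn window, 53.6% for Efemp1, 61.2% for Pcolce2 and 59.2% for Fbn1, against a median of 52.4% over all windows.

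Among the fibril-forming and fibril-binding glycoproteins, Postn, Fn1 and Efemp1 were each over 2-fold higher in H4-TG, and Fbn1 was 1.61-fold higher. Postn, a matricellular protein that binds collagen and integrins, had a log2 signal of 10.80 on the H4-TG array and 9.58 on the WT array. On chromosome 3 its probe runs from 54165047 to 54194959. Positions of probes are those of the authors' table and carry no genome build. The probes of Postn, Efemp1 and Pcolce2 end before the promoter windows printed for these plus-strand genes. Probe positions and window positions are therefore not comparable. The log2 difference was 1.21, or 2.32-fold.

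Fn1, the fibronectin that integrins bind on the cell surface, had log2 signals of 10.12 in H4-TG and 9.08 in WT. This is a log2 difference of 1.03, and Fn1 lay closer above 2-fold than any other of the 6. Its probe spans chromosome 1 from 71632097 to 71699746. Fibronectin is an early scaffold onto which collagen and other fibres are laid.

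Efemp1, also called fibulin-3, is a secreted protein with calcium-binding epidermal growth factor repeats that is found along elastic fibres and in fascia. Its log2 signal was 9.57 in H4-TG and 8.44 in WT, on chromosome 11 at 28753204 to 28826743. The log2 difference was 1.13, or 2.20-fold, between those of Fn1 and Postn.

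Fbn1 encodes the main protein of the microfibrils, which carry elastin and hold latent TGF-beta, and its cut-off end is the hormone asprosin. It was the only gene of the 6 with more than 1 probe in the authors' table. Both were higher in H4-TG, as every probe of that table is by construction. Probes outside the table carry no gene name here, so any further probe of the 6 genes would not be seen. The brighter probe, which spans 207398 bases of chromosome 2 from 125126332 to 125333729, had log2 signals of 8.93 in H4-TG and 8.25 in WT, a difference of 0.69. The dimmer probe spans 2793 bases, from 125330825 to 125333617, inside the same stretch. It had log2 signals of 5.68 in H4-TG and 4.74 in WT, a difference of 0.94. That probe lies below the signal minimum used here, 6.31, which is the median over all probes of the mean of both arrays. It matched no RefSeq accession, whereas the other 6 probes matched the gene they are named for. The brighter probe stands for Fbn1 from here on.

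The processing genes lay near opposite ends of the range. Pcolce2, which helps the protease Bmp1 cut the end off procollagen so that collagen can assemble, had the highest difference of the 6. Its log2 signal was 8.70 in H4-TG and 7.41 in WT, a difference of 1.29 or 2.44-fold, on chromosome 9 at 95538047 to 95595970. Mmp2, a protease that digests denatured collagen and the type of collagen found in basement membranes, had 10.21 in H4-TG and 9.52 in WT. That is a log2 difference of 0.69, or 1.62-fold, close to that of Fbn1. The Mmp2 probe spans chromosome 8 from 95351227 to 95377319.

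**Figure D1:**
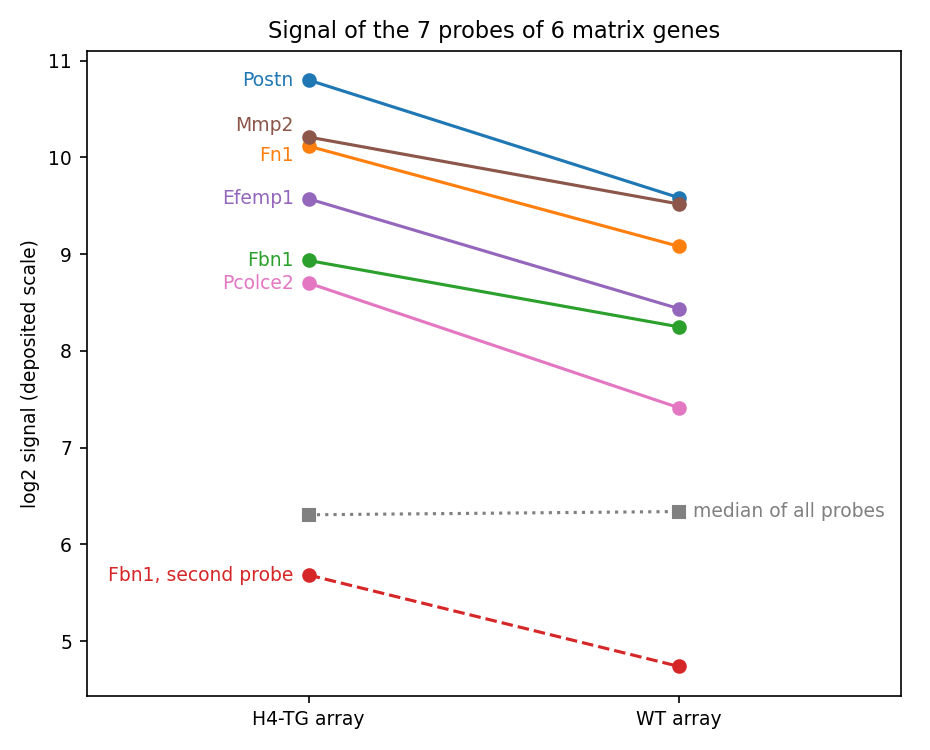
Log2 signal (deposited scale) of the 7 probes on the H4-TG array (left) and the WT array (right), with 1 line per probe and the median of all probes in grey. All 7 lines are higher at H4-TG, which their choice from a list of higher probes fixes. The grey median is 6.31 in H4-TG and 6.34 in WT. Levels of different probes are not comparable with each other.

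The 6 differences fell into 4 above 2-fold and 2 near 1.6-fold, with a gap of 0.34 on the log2 scale between Fn1 and Mmp2. The dimmer Fbn1 probe, at 0.94, lies inside this gap, which therefore depends on the probe that stands for Fbn1. The median that follows is over the 6 genes. Their median difference was 1.08, which is 2.12-fold. Over all probes the median difference was -0.01, over probes above the signal minimum it was -0.09, and over the authors' table it was 0.72. Of the 17778 probes above the minimum, 112 had a signal in H4-TG of at least 2-fold that in WT, which is 0.630%, and in the authors' table the share was 16.3%. The genes were chosen from this same contrast, so nothing is read from 4 of 6 against these shares. At 1.5-fold, where the authors' table begins, 4.27% of all probes were higher, and all 6 genes passed by the choice itself. The members nearest to that limit were Fbn1 and Mmp2. Between 1.5-fold and 1.6-fold the value table held 525 probes, of which 343 stood in the authors' table. Between 1.4-fold and 1.5-fold it held 893, of which 20 did. The authors' table thus leaves out part of the probes above 1.5-fold, by a rule not given here. Absence from it does not show a difference under 1.5-fold.

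The position of each probe among all probes of its own array is not moved by a shift shared by all its probes. All 6 genes stood higher on the H4-TG array, a direction that their choice from a list of higher probes largely fixes. Postn stood at rank 872 of 35556 by signal in H4-TG and at rank 2591 in WT. Fn1 was at 1551 in H4-TG and 3898 in WT, and Mmp2 at 1430 in H4-TG and 2723 in WT. These 3 probes were thus among the brighter ones on both arrays, and Mmp2 gained the fewest places, 1293. Efemp1 was at rank 2470 in H4-TG and 6385 in WT. Pcolce2 gained the most places, 6849, with rank 4855 in H4-TG and 11704 in WT. Fbn1 was at rank 4063 in H4-TG and 7225 in WT. In percentiles of all probes, the 6 lay between 86.3 and 97.5 in H4-TG and between 67.1 and 92.7 in WT. A probe's rank also depends on how well it binds its target, so it orders the 2 arrays for 1 gene and not the genes among themselves.

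Because the spread of differences varies with signal, each difference was set beside probes whose mean signal lay within 0.5 on the log2 scale. Around Postn there were 1278 such probes, and 3 of them, Postn included, differed at least as much in the same direction. For Efemp1 the count was 10 of 3149 (0.318%) and for Fn1 it was 7 of 2096 (0.334%). For Pcolce2 it was 20 of 4984, or 0.401%. Fbn1 and Mmp2 were less extreme for their signal, with 40 of 4013 (0.997%) and 17 of 1721 (0.988%). The dimmer Fbn1 probe had 80 of 6006 at least as high, although its difference was larger than that of the brighter one. Median differences in the 6 windows of the brighter probes lay between -0.10 and -0.08, so a probe of this brightness was typically slightly lower in H4-TG. The genes were chosen from a list that begins at 1.5-fold in this same contrast, so small counts follow largely from that choice. These counts place the probes within 1 pair of arrays and say nothing of the spread between animals.

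**Figure D2:**
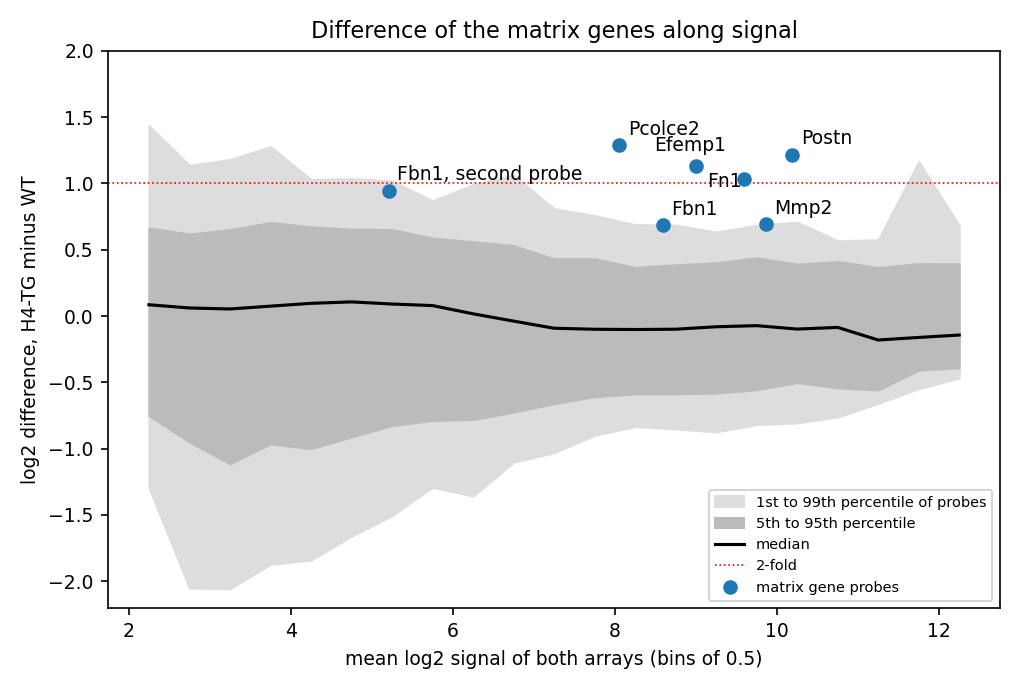
Log2 difference, H4-TG minus WT, against the mean log2 signal of both arrays in bins of 0.5, with the median (black) and the 5th to 95th and 1st to 99th percentiles of probes (inner and outer grey bands) and the 7 matrix gene probes (blue). Pcolce2, Efemp1, Fn1 and Postn lie above the outer band, Fbn1 and Mmp2 at its upper edge, and the dimmer Fbn1 probe near its edge at lower signal. All 7 probes come from a list of higher probes, so a place high in the bands is largely fixed by the choice.

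The rest of the matrix machinery was read from 5 gene lists of 133 genes, written with earlier results of these data known: glycoproteins, collagens, proteoglycans, collagen processing, and proteases with their inhibitors. A gene missing from the authors' table has no value here. The table holds 2.44% of all probes of the array, and the counts below are given beside that share, with nothing read from a list with few or no members in it. Of the 133, 17 were in the table, all higher by its construction, and 11 of these lie outside the 6 genes described above. The 6 were picked for their place in the table, so 17 of 133 is not independent of that choice. None of the 11 reached 2-fold, where the share over the whole table is 16.3%, and their log2 differences lay between 0.58 and 0.77 with a median of 0.65.

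Of 43 glycoprotein genes 9 were listed, 4 of them described above. Mfap5, a microfibril protein that works with fibrillin, had log2 signals of 8.65 in H4-TG and 7.88 in WT. Fndc1, a protein with fibronectin type III repeats, had 7.80 in H4-TG and 7.09 in WT. The laminin chain Lama2, which ties muscle fibres and other cells to the basement membrane, had 8.53 in H4-TG and 7.91 in WT. Svep1, a large cell adhesion protein, differed by 0.61 and the thrombospondin Thbs3 by 0.58, the latter below the signal minimum. Elastin, tenascin C, the other fibulins of the list and fibrillin 2 were not in the table.

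None of the 18 collagen genes, which include chains of types I, III and VI, was in the authors' table. At 2.44% of probes listed, a list of this size can have no member there without standing apart, and the collagens have no value here. The 2 listed proteoglycans of 16 were lumican (Lum), which spaces collagen fibrils, at 8.91 in H4-TG and 8.23 in WT, and versican (Vcan) at 7.02 in H4-TG and 6.37 in WT. Collagen processing had 3 of 24 listed, namely Pcolce2, the crosslinking enzyme Loxl1 (8.29 in H4-TG and 7.66 in WT) and, below the signal minimum, the procollagen protease Adamts3 (4.73 in H4-TG and 4.12 in WT). Pcolce, Bmp1 and Lox were not. Among 32 proteases and inhibitors, Mmp2, Mmp19 (7.93 in H4-TG and 7.18 in WT) and the membrane protease Adam12 (7.98 in H4-TG and 7.30 in WT) were listed. The Mmp2 activator Mmp14 and its inhibitor Timp2 were not.

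Matrix receptors and upstream signals had 3 genes in the table. Of 26 integrins and other matrix receptors only Itgb6 was listed, at 4.68 in H4-TG and 3.97 in WT, below the signal minimum. Of 20 TGF-beta pathway genes 2 were listed. Gdf10, a secreted ligand of that family, had 7.69 in H4-TG and 7.10 in WT. Myostatin (Mstn), a ligand made mainly by skeletal muscle, had 5.72 in H4-TG and 4.71 in WT, below the signal minimum.

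Markers of other cell types were read from the authors' table in the same way, so every listed one is higher by the table's construction. These lists too were written with earlier results of these data known, so their counts are no independent result. The shares beside them are again 2.44% of all probes listed and 16.3% of the table at 2-fold or more. Of 30 skeletal muscle markers 28 were listed, 22 of them at least 2-fold higher and all 22 above the highest matrix difference, that of Pcolce2. The log2 signals of the 28 ran from 5.40 to 11.53 with a median of 9.38 in H4-TG, against 4.44 to 9.76 with a median of 6.86 in WT. Summed as linear signal, the 28 gave 23106.5 in H4-TG and 4458.5 in WT, a ratio of 5.18. The brightest probes weigh most in such a sum, and it does not measure an amount of muscle RNA. Of the 28, 21 lay above the signal minimum and the rest below it, and Tnnt1 and Cav3 have no value. The median log2 difference of the listed muscle markers was 2.11, against 1.08 for the 6 matrix genes. The part of muscle tissue in the matrix differences was not tested, and because each genotype has a single array, genotype and tissue make-up cannot be told apart.

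Of 23 fibroblast and progenitor markers 9 were listed and 14 have no value. The median log2 difference of the 9 was 0.72, the same as over the whole table. The limit of the table sets a floor for every listed gene, so nothing is read from this median. A difference of 2-fold or more was seen for 1 of them, the Wnt modulator Sfrp2 (8.20 in H4-TG and 7.04 in WT). The log2 signals of the 9 ran from 6.01 to 9.99 in H4-TG, against 5.28 to 9.33 in WT. Their summed linear signal, in which the brightest probes weigh most, was 2976 in H4-TG and 1766 in WT. The protease inhibitor-like Pi16 (7.84 in H4-TG and 6.84 in WT) and the stromal antigen Cd248 (8.36 in H4-TG and 7.47 in WT) followed, and Pdgfra, Pdgfrb and Thy1 were not listed. In pooled tissue, more cells of a type and more RNA per cell cannot be told apart. The part of fibroblast number in the matrix differences was not tested.

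Of 18 tendon and muscle connective tissue or myogenic markers, 2 were listed, both below the signal minimum. They were the myogenic factors Myod1 (6.38 in H4-TG and 5.71 in WT) and Myog (5.22 in H4-TG and 4.58 in WT), whereas the tendon genes Tnmd, Scx and Mkx were not listed. Smooth muscle, endothelial and macrophage markers had 3 of 16 listed, all 3 macrophage genes (Cd163, Retnla and Mgl2) and none at 2-fold, with differences of 0.75 to 0.96. Of 13 adipocyte markers only angiotensinogen (Agt, 7.67 in H4-TG and 6.95 in WT) was listed. Adipoq, Fabp4 and Plin1 have no value, so the tissue label could not be checked by its defining adipocyte genes.

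**Figure D3:**
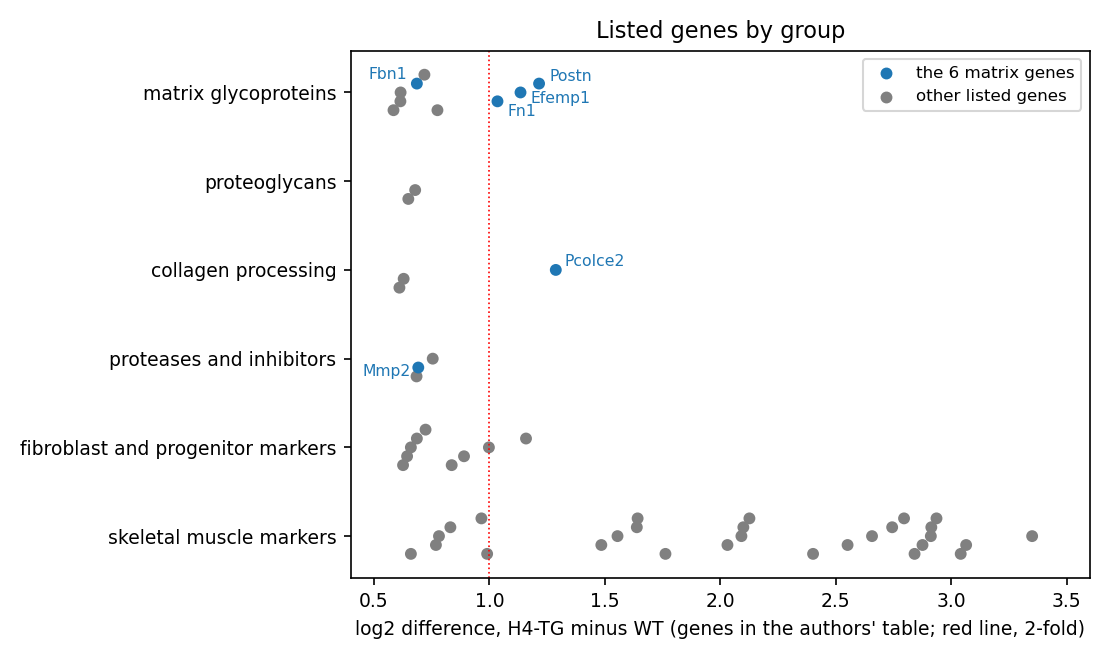
Log2 difference, H4-TG minus WT, of each gene found in the authors' table, by list (rows; vertical offsets only separate points), with the 6 matrix genes in blue and other genes in grey. Postn, Efemp1, Fn1 and Pcolce2 lie right of the 2-fold line while the 11 other matrix genes stay left of it, and 22 muscle markers lie beyond Pcolce2. The 6 were picked with their differences known, so nothing is read from their split from the 11.

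For each of the 6, the other genes of the authors' table with the nearest pair of log2 signals over the 2 arrays were picked, with likeness measured as straight-line distance in log2 units. Fbn1 had the closest neighbours, lumican at 0.03 and the amino acid transporter Slc43a1 at 0.05. Fn1 lay 0.11 from the macrophage product Retnla and 0.22 from Cyp2f2. Mmp2 lay 0.13 from both Ppa1, an inorganic pyrophosphatase, and Plpp3 (Ppap2b in the table). Pcolce2 lay 0.10 from the muscle phosphofructokinase Pfkm, which had 8.68 in H4-TG and 7.31 in WT, and 0.18 from the olfactory receptor Olfr767. Postn and Efemp1 had no near match. The nearest to Postn was Ces1f at 0.37, then Trarg1 (Tusc5 in the table) at 0.39, and the nearest to Efemp1 were Bmpr1a at 0.27 and Acad11 at 0.28. With 2 arrays such likeness is a match of levels only. Those levels also depend on how well each probe binds its target, so a small distance shows no link between genes.

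**Figure D4:**
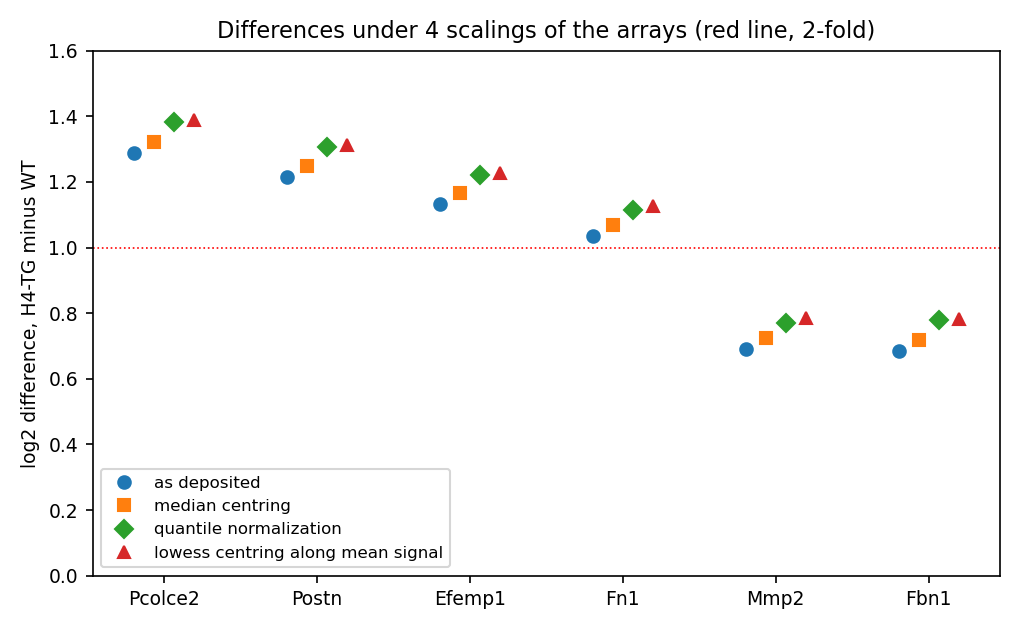
Log2 difference, H4-TG minus WT, of the 6 genes as deposited and under 3 other scalings of the arrays (symbols), ordered by the deposited difference. Pcolce2, Postn, Efemp1 and Fn1 stay above the 2-fold line and Mmp2 and Fbn1 below it under all 4 scalings.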

How the data were processed

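Total RNA was extracted with Trizol and labelled with biotin for a mouse gene array, per the labels' protocols. The submitters' processing notes name MAS5. They give no settings, scaling between arrays or genome build. The deposited value table holds log2 signals, by comparison with the authors' table, whose log2 bi-weight signals (per the file headers) matched it within 0.005 in all 869 rows. The authors' deposited fold ratio, H4TG over CON per the file headers, was used only for membership and its limit of 1.5. Gene names come from that table, updated through RefSeq accessions.

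Differences are H4-TG minus WT. The brightest probe stands for a gene. The signal minimum, percentiles, neighbours within 0.5 and motif matches were computed with statsmodels 0.14.6 (lowess, span 0.3), pandas 2.3.3 and numpy 2.4.6 under Python 3.11.15. The genes, lists and rules were chosen with earlier results of these data known. Named were the 6 genes, all listed genes of the matrix lists, and the 2 nearest genes to each. Other cell markers were named as values.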

Additional observations from a re-analysis of the deposited data

How the results depend on the processing

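Under median centring, quantile normalization, lowess centring along signal, the authors' rounded signals and averaging of a gene's probes, the median difference of the 6 genes stayed between 1.08 and 1.18. The count at 2-fold or more was 4 under the 3 other scalings and 6 at a threshold of 1.5-fold. Of 30 recomputed gene differences 2 moved by over 0.1, that of Pcolce2 to 1.39 with lowess centring and that of Fbn1 to 0.81 with the mean over its probes. None reversed, which the choice of genes largely fixes. The number of probes at least 2-fold higher above the signal minimum was 112 as deposited, between 121 and 132 under the other scalings, 89 without the lowest identifiers, 410 at 1.5-fold and 317 with no minimum. Of 48 recomputed signal percentiles 1 moved by over 1 point, that of Pcolce2 in WT, to 66.0 without the lowest identifiers. No paired analysis was possible because only 1 array per genotype exists here, and no array could be left out.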

Other observations

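A search of the gene descriptions of the authors' table for matrix words, made after the values were seen, found 7 genes outside the lists, all under 2-fold. Above the signal minimum were the laminin chain Lamc3 (7.41 in H4-TG and 6.68 in WT), the calcification inhibitor matrix Gla protein (Mgp, 7.84 in H4-TG and 7.18 in WT) and the secreted spondin Spon2 (6.78 in H4-TG and 6.09 in WT). Adamts8, Elfn1, Hapln4 and Matn4 were below it.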
